A study of Mus musculus with 59 samples.

Results

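Lithium was compared with vehicle in the prefrontal cortex of male mice heterozygous (HT) for Ash1l, which encodes a histone H3 lysine 36 methyltransferase linked to autism. The comparison used every library labelled HT, male and either lithium or vehicle, 5 of each, so 10 of the 59 libraries of the series. Strain C57BL/6J pups received the drug through their mothers' milk from postnatal day 3 to 24, which is 3 weeks, and the cortex was taken on day 25. HT and wild-type (WT) mice of both sexes received vehicle, fluoxetine or lithium, giving 12 groups of 5 libraries, except 4 for HT lithium females. All 10 libraries described here therefore carry 1 disrupted Ash1l allele. The lithium dose, the make-up of the vehicle, the litters and the dams are not given in the labels. Pups of 1 dam would share its milk, so how far the 5 libraries of a group are independent was not tested, and the p-values rest on the spread among libraries alone.

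Lithium is a mood-stabilising ion that inhibits glycogen synthase kinase 3 (GSK3) and several magnesium-dependent phosphatases of the inositol cycle. GSK3 phosphorylates β-catenin, which marks it for breakdown in the absence of a Wnt signal. Stabilised β-catenin enters the nucleus and acts with TCF and LEF factors on Wnt target genes. The assay was RNA sequencing of bulk cortex, which holds neurons, astrocytes, oligodendrocytes, microglia and vessels, so fewer cells of a type and less RNA per cell cannot be told apart.

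The 10 libraries held 25884447 to 36171757 recovered reads, against 24470332 to 36323070 over the series. Their scatter around the group means (root mean square of log2 residuals) was 0.316 to 0.378. The largest values of the series lay outside the comparison, at 0.512 in WT vehicle female 3 and 0.484 in WT vehicle male 2. Libraries are called by drug and replicate number, as in lithium 4 or vehicle 5, and the labels do not say that a number links libraries across groups. Xist was at most 12.4 normalised reads in the 10 libraries and Ddx3y was at least 983, as the label male requires. Marker lists set some libraries apart within a group. The summed striatal markers were 22753 normalised reads in lithium 4 and 7180 to 8321 in the other lithium libraries, and 13102 in vehicle 5 and 6737 to 7265 in the other vehicle libraries. Thalamic markers were 7595 in vehicle 5 and 3968 to 5365 in the other vehicle libraries. Olfactory bulb markers reached 26504 in vehicle 5 and 15931 in vehicle 3, against 9611 to 11102 in the other vehicle libraries. Blood markers were 20566 to 21631 in lithium 1, 2 and 3, 5107 and 6295 in lithium 4 and 5, and 6889 to 14727 in the vehicle libraries. Their part in the results below was not tested, except through the values given without single libraries.

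Ash1l itself did not differ between the groups beyond their spread. Lithium libraries 1 to 5 had 4125, 4234, 4114, 3997 and 4097 normalised reads, and vehicle libraries 1 to 5 had 4074, 3966, 4307, 3889 and 4244. The means were 4114 ± 84.4 and 4096 ± 178 (SD, n = 5 each), a log2 difference of 0.01 with a 95% interval from -0.10 to 0.12 (adjusted p = 0.976). The lithium range lay within the vehicle range. WT males had more, at 5418 ± 489 with vehicle and 5066 ± 229 with lithium, the direction the genotype labels give. Ash1l was the single gene past the threshold between HT and WT males, both with vehicle (log2 difference -0.40, adjusted p = 3.67e-05) and with lithium (-0.30, adjusted p = 0.0295), 0.00559% of the genes tested each time.

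Lithium-treated HT males differed from vehicle-treated HT males in 45 genes, 25 higher and 20 lower. The leading genes that fell were Nrarp, a feedback inhibitor of Notch signalling, Slc16a1, a lactate transporter, Ctnnb1, which encodes β-catenin itself, and the secreted factors Igfbp5 and Ptn. Those that rose were led by the uncharacterised AI854703, the protease inhibitor Serpina3n, the transcription elongation factor Tcea2, the antioxidant enzyme Srxn1 and the stress-responsive Fam107a. The changes were small. The median absolute log2 fold change of the 45 was 0.35, the range 0.22 to 1.14, with 7 genes past 1.5-fold and 1, Hspb7, past 2-fold.

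The 45 calls were 0.252% of 17875 genes tested (0.14% higher and 0.112% lower), at a Benjamini-Hochberg adjusted p under 0.05 from limma on log2(normalised count + 1). At an unadjusted p under 0.05 there were 2203 genes, or 12.3%. All 45 code for proteins. In 37 of them, 20 risen and 17 fallen, the 5 lithium and 5 vehicle libraries did not overlap, which held for 3.44% of all genes tested (1.76% with lithium higher and 1.68% with lithium lower). Giving every library the same median moved the split of calls from 55.6% higher to 71.7% higher (33 higher and 13 lower).

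Leaving out 1 library at a time changed how many genes passed. The number was 12 without lithium 2, 21 without lithium 3, 12 without vehicle 1, 14 without vehicle 2 and 15 without vehicle 5, and 38 to 49 without any other library of the 10. The calls of Nrarp, Slc16a1, Ctnnb1, Igfbp5, Ptn, Lox, AI854703, Serpina3n and Tcea2 held without any single library. A fit limited to the 10 libraries called 28 genes, of which 13 were among the 45, and left Ctnnb1 at adjusted p = 0.0533.

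**Figure D1:**
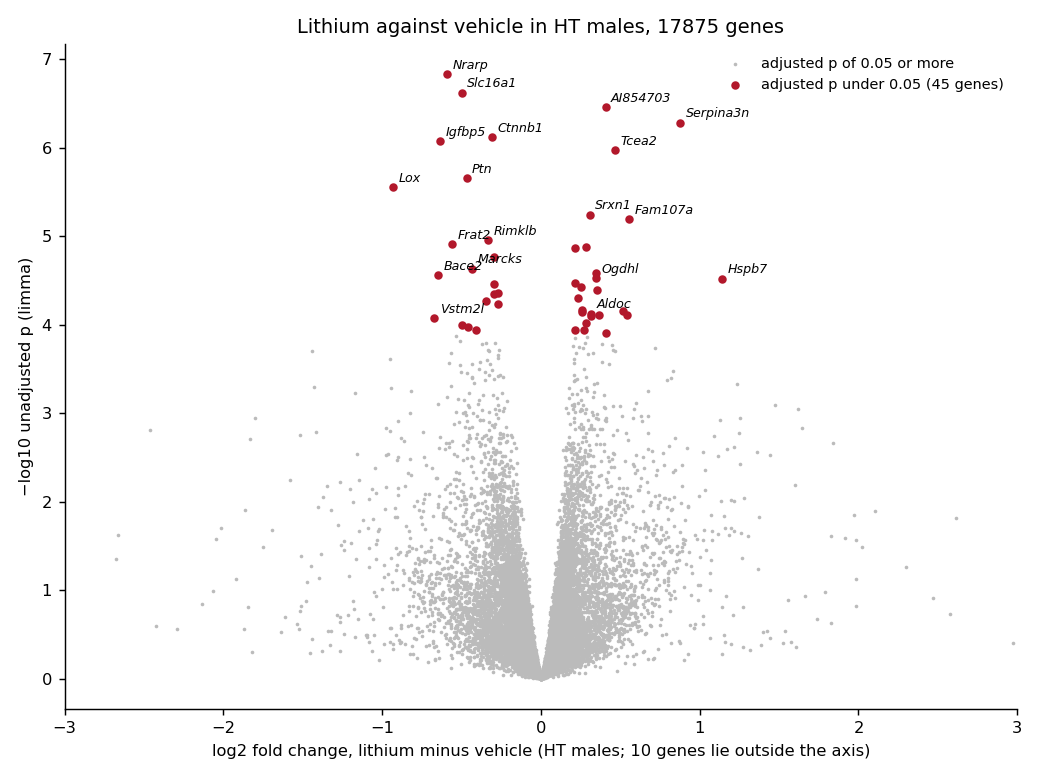
Each point is 1 of the genes tested, with its log2 fold change (lithium minus vehicle) on the horizontal axis and −log10 of the unadjusted limma p on the vertical axis. The 45 red points passed the adjusted threshold, and they lie within 1.14 of 0; 10 grey genes lie beyond the axis limits of 3.

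The promoters of the 3 risen and 3 fallen genes with the smallest p that had an entry are shown because these genes carry the leading changes. Each runs 5′ to 3′ from 250 bases before to 50 bases after the start site, from RefSeq on build GRCm38.p6, and capitals mark matches to the motifs searched on both strands. The positions are chr2:25180508-25180807 (plus strand) for Nrarp, chr3:104638414-104638713 (plus) for Slc16a1, chr9:120933150-120933449 (plus) for Ctnnb1, chr12:104406458-104406757 (plus) for Serpina3n, chr2:152105274-152105573 (plus) for Srxn1 and chr14:8317558-8317857 (minus) for Fam107a.
Nrarp: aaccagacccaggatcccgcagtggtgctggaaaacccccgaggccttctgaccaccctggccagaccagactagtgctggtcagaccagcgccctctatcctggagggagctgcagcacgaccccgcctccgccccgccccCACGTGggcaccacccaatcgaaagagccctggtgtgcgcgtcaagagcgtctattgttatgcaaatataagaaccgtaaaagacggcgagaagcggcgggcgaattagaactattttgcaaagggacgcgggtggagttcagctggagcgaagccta
Slc16a1: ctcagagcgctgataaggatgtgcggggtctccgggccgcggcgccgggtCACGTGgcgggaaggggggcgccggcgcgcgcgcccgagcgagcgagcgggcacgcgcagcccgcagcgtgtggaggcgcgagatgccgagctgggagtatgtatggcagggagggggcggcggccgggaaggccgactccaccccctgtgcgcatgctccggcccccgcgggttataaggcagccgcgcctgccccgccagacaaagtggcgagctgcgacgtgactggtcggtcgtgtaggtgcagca
Ctnnb1: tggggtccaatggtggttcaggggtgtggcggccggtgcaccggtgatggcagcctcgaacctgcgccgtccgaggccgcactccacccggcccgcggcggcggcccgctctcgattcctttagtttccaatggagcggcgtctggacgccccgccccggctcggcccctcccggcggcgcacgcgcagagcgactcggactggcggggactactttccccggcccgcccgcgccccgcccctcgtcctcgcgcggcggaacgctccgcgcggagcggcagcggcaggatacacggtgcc
Serpina3n: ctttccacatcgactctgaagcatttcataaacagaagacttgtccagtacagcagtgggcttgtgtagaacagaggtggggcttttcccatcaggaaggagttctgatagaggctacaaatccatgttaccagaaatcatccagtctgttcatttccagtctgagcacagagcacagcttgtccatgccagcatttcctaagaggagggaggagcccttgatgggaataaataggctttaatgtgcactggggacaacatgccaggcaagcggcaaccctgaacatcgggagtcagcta
Srxn1: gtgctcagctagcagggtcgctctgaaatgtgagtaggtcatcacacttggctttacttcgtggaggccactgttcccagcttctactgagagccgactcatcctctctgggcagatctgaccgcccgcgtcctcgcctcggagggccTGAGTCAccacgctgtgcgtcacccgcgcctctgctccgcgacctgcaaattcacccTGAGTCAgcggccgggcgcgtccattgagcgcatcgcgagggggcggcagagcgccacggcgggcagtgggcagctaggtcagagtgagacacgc
Fam107a: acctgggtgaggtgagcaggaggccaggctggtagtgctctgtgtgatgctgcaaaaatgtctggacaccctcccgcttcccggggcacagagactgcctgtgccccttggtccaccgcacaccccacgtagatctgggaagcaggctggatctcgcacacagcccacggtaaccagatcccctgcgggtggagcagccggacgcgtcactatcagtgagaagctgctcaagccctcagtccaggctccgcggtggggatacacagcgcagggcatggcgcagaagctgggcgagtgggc
Ctnnb1 has 2 promoter entries and Fam107a 3, of which the first is shown; the others held no match either.

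The motifs searched were CTTTGAT, read by TCF and LEF factors, CACGTG (E-box), TGANTCA (AP-1), TGACGTCA (the cyclic AMP response element), GCGTGGGCG (EGR) and TCACNCCAC (a sterol response element). No letters of one motif overlapped another in the 6 promoters shown. Srxn1 held the AP-1 letters 102 and 45 bases before its start site. Nrarp held an E-box 108 bases and Slc16a1 an E-box 200 bases before the start. The TCF and LEF letters were in none of the 6 promoters. Over the 45 promoter entries of 36 called genes, the E-box was in 5 (11.1%), those of Nrarp, Slc16a1, Ogdhl, Pnpla7 and Usp6nl, against 7.15% of all 32851 promoters in the table. The TCF and LEF letters were in 1 (Txndc16; 2.22%, against 3.73% of all), AP-1 in 1 (Srxn1; 7.81% of all) and the sterol element in 1 (Aldoc; 1.24% of all). The cyclic AMP response element and the EGR motif were in none, against 1.79% and 0.612% of all promoters.

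Ctnnb1, 1 of the 34 genes of the Wnt list, fell. The gene (ENSMUSG00000006932, chr9:120929216-120960507, GRCm38) encodes β-catenin, the transducer of canonical Wnt signalling and a partner of cadherins at cell junctions. Its normalised counts were 14519, 14934, 14483, 16012 and 15291 in lithium 1 to 5 and 18369, 20753, 17522, 18393 and 18271 in vehicle 1 to 5. Every lithium library lay below every vehicle library, and vehicle 2 stood above the rest. The means were 15048 ± 633 and 18662 ± 1223 (SD, n = 5), a fitted log2 difference of -0.31 ± 0.055 (SE; adjusted p = 0.00249), so the level fell by 19.3%. The letters searched had no match in the promoter shown above.

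Frat2, which encodes a protein that binds GSK3 and promotes Wnt signalling and is on none of the lists, also fell. It had 97.2, 124, 136, 112 and 128 normalised reads in lithium 1 to 5, and 180, 207, 159, 152 and 184 in vehicle 1 to 5. The groups did not overlap, and the log2 difference was -0.56 ± 0.116 (adjusted p = 0.0161). The Frat2 call ended without lithium 1 or without vehicle 1, 2 or 5, with an adjusted p from 0.0503 to 0.0779.

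No other gene of the Wnt list passed in the fit over all libraries. The list held 34 genes, all tested, of which 8 had a log2 fold change above 0 and 26 below, with a median of -0.17 (all genes tested: 8842 above, 9033 below, median -0.0020). Ctnnb1 was the 1 that passed. The number that fell was 2 with DESeq2, with GC and length trends removed, without lithium 4 and without lithium 5. It was 3 with library weights and without the 2 WT vehicle libraries that stand apart, and 0 in the fit limited to the 10 libraries. The next members by p, chosen after their values were seen, were the secreted Wnt antagonist Sfrp1 (log2 difference -0.51 ± 0.126, adjusted p = 0.0547) and the transcription factor Lef1 (-0.59 ± 0.164, adjusted p = 0.0919). Lef1 and Tcf7l2 are also on the thalamic marker list, whose sum was highest in vehicle 5, at 7595 normalised reads. The part of thalamic tissue in the Lef1 value was not tested. Summed over the Wnt list, the lithium libraries had 67341 to 72380 normalised reads and the vehicle libraries 74325 to 85016, without overlap. Ctnnb1 alone gave 14483 to 16012 of these reads with lithium and 17522 to 20753 with vehicle. The separation rests on it, since without its reads vehicle 5 lies below lithium 1 and 5. Over all settings tried, the median of the list stayed between -0.19 and -0.12.

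The direct targets of lithium showed no change at the RNA level that passed the test. The 10 genes listed encode GSK3, inositol phosphatases, related lithium-sensitive phosphatases and phosphoglucomutases, and 9 were tested (Fbp1 is not analysed here). The kinase gene Gsk3a had 5564, 5565, 6036, 6126 and 6114 normalised reads with lithium and 6002, 6816, 5539, 6631 and 6164 with vehicle, a log2 difference of -0.08 (95% interval -0.21 to 0.05). For Gsk3b the difference was -0.02 (-0.19 to 0.14). In both genes the groups overlapped.

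Impa1, the inositol monophosphatase that lithium inhibits, had 2020 to 2179 normalised reads with lithium and 1778 to 1972 with vehicle. Those ranges did not overlap, but the log2 difference of 0.13 (95% interval 0.01 to 0.25) missed the threshold (adjusted p = 0.372). Pgm1, a phosphoglucomutase, was similar at 0.15 (0.01 to 0.28; adjusted p = 0.371), with overlapping groups. The remaining values were -0.02 for Impa2, 0.05 for Inpp1, 0.01 for Bpnt1, -0.17 for Impad1 and 0.00 for Pgm2. Of 29 tested genes of inositol and phosphoinositide metabolism, none passed, with 22 above 0 and a median of 0.05.

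Nrarp had the smallest p of all genes. Its product, the Notch-regulated ankyrin repeat protein (ENSMUSG00000078202, chr2:25180758-25183339, GRCm38), is made in response to Notch and dampens it. The counts were 427, 381, 411, 413 and 410 in lithium 1 to 5 and 692, 651, 576, 532 and 639 in vehicle 1 to 5. The lithium libraries were tightly grouped below all vehicle libraries. The mean fell from 618 ± 63.5 to 408 ± 16.7 (SD, n = 5), a log2 difference of -0.59 ± 0.098 (adjusted p = 0.00208).

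Igfbp5, which binds insulin-like growth factors, had 3397, 2632, 2871, 3151 and 2992 normalised reads with lithium and 3888, 4373, 4722, 4651 and 5815 with vehicle. The groups did not overlap, vehicle 5 was highest, and the log2 difference was -0.63 ± 0.114 (adjusted p = 0.00249). Ptn encodes pleiotrophin, a heparin-binding growth factor of developing neurons and glia. It had 11458, 9986, 10454, 9380 and 9877 normalised reads with lithium and 13338, 14190, 15527, 13940 and 13696 with vehicle. Again every lithium library was below every vehicle library (-0.47 ± 0.088, adjusted p = 0.00492).

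Lox, whose enzyme cross-links collagen and elastin, was a low-count gene with 47.0, 55.9, 51.1, 58.2 and 42.9 normalised reads with lithium and 84.8, 124, 98.9, 76.5 and 112 with vehicle. The groups did not overlap, and the log2 difference was -0.93 ± 0.178 (adjusted p = 0.00554), so the fitted level fell by 47.6%. HT vehicle males had the highest mean of the vehicle groups, at 99.3 ± 19.5 normalised reads (SD). HT vehicle females had 77.6 ± 14.2, WT vehicle males 64.4 ± 11.8 and WT vehicle females 68.8 ± 14.7. Lithium males had 51.0 ± 6.26 (HT) and 58.3 ± 8.57 (WT). How far the fall reflects the high vehicle level was not tested. Fbln5, a component of elastic fibres named after its values were seen, fell from 284 ± 37.1 to 201 ± 27.4 (-0.50 ± 0.119, adjusted p = 0.0452). Its call ended without any single library of the 10 except vehicle 4 (adjusted p from 0.0550 to 0.151). All 12 markers of meningeal fibroblasts, which express matrix genes, were below 0 (median -0.31), and none passed. Their summed level was 21797 to 30346 with lithium and 26439 to 31164 with vehicle, and none of them was at 0, so their part in these matrix genes was not tested.

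**Figure D2:**
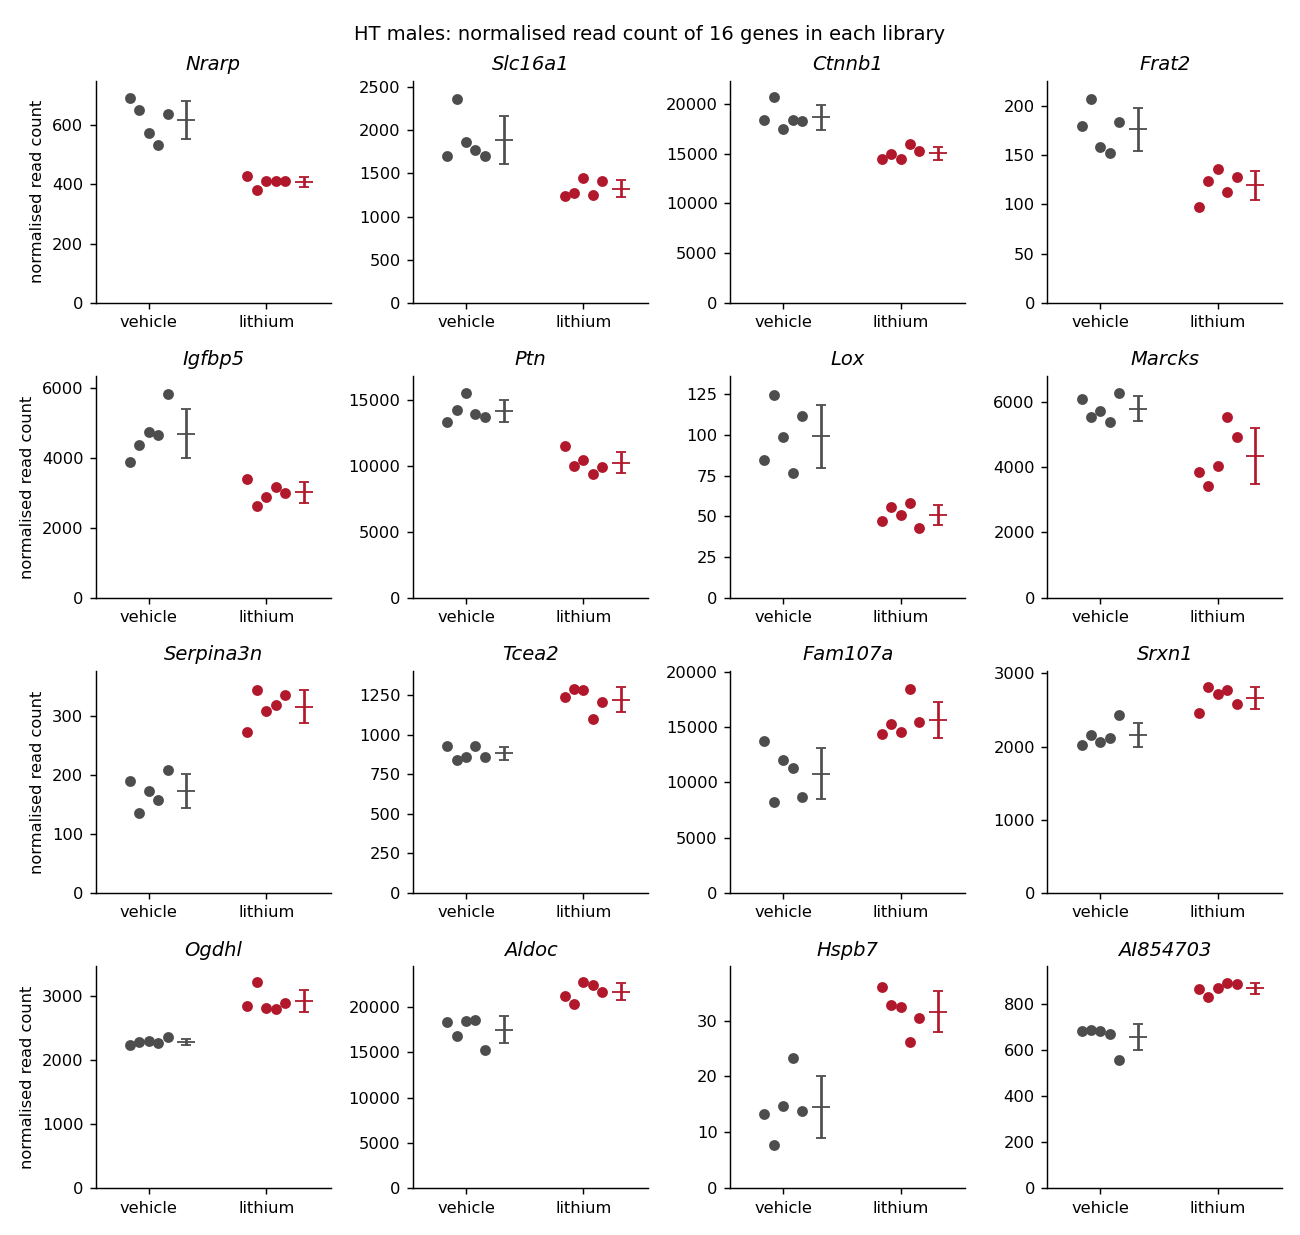
Normalised read count (vertical axes, starting at 0) of 16 called genes in each vehicle library (grey) and lithium library (red) of HT males; the bar beside each group is the mean ± SD of 5 libraries. The lithium libraries lie on 1 side of all vehicle libraries in every panel except Marcks.

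Slc16a1, a member of the hypoxia and glycolysis list, fell. It encodes MCT1, which carries lactate, pyruvate and ketone bodies across the membranes of endothelial and glial cells and is a main route for fuel from milk fat in the suckling brain. It had 1234, 1278, 1447, 1248 and 1417 normalised reads with lithium and 1706, 2371, 1868, 1777 and 1705 with vehicle. Vehicle 2 stood above the others, and all vehicle libraries were above all lithium libraries (-0.50 ± 0.085, adjusted p = 0.00208). Without vehicle 2 the call held.

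Aldoc, the brain aldolase of glycolysis, rose from 17485 ± 1480 to 21698 ± 947 (log2 difference 0.31 ± 0.073, adjusted p = 0.0386). Ogdhl, a 2-oxoglutarate dehydrogenase of brain mitochondria, rose as well, with 2845, 3212, 2809, 2793 and 2889 normalised reads against 2228, 2269, 2290, 2261 and 2353 (0.35 ± 0.077, adjusted p = 0.0257). Both groups of libraries were narrow and separate for Ogdhl. The Ogdhl call ended without lithium 2 or vehicle 1, 2 or 5 (adjusted p from 0.0503 to 0.113), and that of Aldoc without any library except vehicle 3 and 4 (0.0525 to 0.126). The list of hypoxia and glycolysis genes, which holds Slc16a1 and Aldoc, had 11 members above and 11 below 0, with 1 risen, 1 fallen and 20 not past the test.

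Nuclear-encoded subunits of oxidative phosphorylation, the mitochondrial respiratory chain and ATP synthase, lay above 0 in 71 of 74 genes, with a median of 0.15. None passed, and 31 had an unadjusted p under 0.05, where 1172 of all genes tested did in this direction. With library weights 11 rose, with DESeq2 2, and 1 with GC and length trends removed, without lithium 5 and without the 2 WT vehicle libraries. Cytosolic ribosomal protein genes were above 0 in 69 of 75 (median 0.10, none passed). For the oxidative phosphorylation list, lithium 4 and 5 had summed levels of 241082 and 237950, within the vehicle range of 220352 to 258847, and lithium 1 to 3 had 260678 to 272603. The same 3 libraries had the high blood markers given above, and how far the 2 patterns are connected was not tested.

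Cholesterol synthesis genes lay mostly below 0. Of 25 genes tested, 23 were below and 2 above, with a median of -0.16, and none passed. With DESeq2, with library weights and without the 2 WT vehicle libraries that stand apart, 3 members fell. With only the 10 libraries, with GC and length trends removed, without robust variances, without lithium 1 and without vehicle 3, 1 fell. At an unadjusted p under 0.05, 10 were lower and 1 higher, where 1031 and 1172 of the 17875 genes tested were. Closest to the threshold, and chosen after their values were seen, were Hmgcs1, the synthase that makes HMG-CoA (-0.29 ± 0.0715, adjusted p = 0.0547), Insig1, a sterol-regulated brake on the pathway (-0.32, adjusted p = 0.0613), and the sterol carrier Stard4 (-0.35, adjusted p = 0.0696). Hmgcs1 had 8929 to 9450 normalised reads with lithium and 10785 to 11833 with vehicle, without overlap. Summed over the list, lithium libraries had 42570 to 48458 and vehicle libraries 49904 to 57700, also without overlap. The sum includes Hmgcs1, and how far the separation rests on it was not tested. Without vehicle 2, the highest library, 21 of the 25 were below 0 and the median was -0.11.

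Serpina3n, an inhibitor of serine proteases that reactive astrocytes express strongly, had 273, 345, 309, 320 and 336 normalised reads with lithium and 190, 135, 173, 157 and 209 with vehicle. No libraries overlapped, and the level rose 1.84-fold in the fit, with means of 173 ± 28.7 and 316.5 ± 28.0 (log2 difference 0.88 ± 0.154, adjusted p = 0.00231). Srxn1, sulfiredoxin, restores overoxidised peroxiredoxins and is a known target of the antioxidant response. It had 2455, 2817, 2715, 2771 and 2579 normalised reads with lithium and 2024, 2163, 2062, 2110 and 2433 with vehicle (0.31 ± 0.061, adjusted p = 0.0102). Vehicle 5 came close to lithium 1 without overlap. Without lithium 2 or vehicle 1 the Srxn1 call ended, at adjusted p = 0.0550 and 0.0562.

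Fam107a encodes an actin-binding protein that stress and glucocorticoids induce in brain. It had 14341, 15291, 14512, 18394 and 15449 normalised reads with lithium and 13692, 8224, 12031, 11253 and 8686 with vehicle. The vehicle libraries were spread widely but stayed below the lithium libraries (0.55 ± 0.111, adjusted p = 0.0104). Its call ended without vehicle 2 (adjusted p = 0.0773) or vehicle 5 (0.0587). Of 20 other glucocorticoid-responsive genes none passed, with 12 above 0 and a median of 0.08, which ran from -0.01 without lithium 1 to 0.15 without lithium 5. Fkbp5, a co-chaperone of the glucocorticoid receptor named after its values were seen, had 1474 to 1580 normalised reads in lithium 1 to 4, 815 in lithium 5 and 876 to 1009 with vehicle (0.50 ± 0.187, adjusted p = 0.228).

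Hspb7, a small heat shock protein best known from muscle, had the largest fold of the 45, at low counts. The normalised reads were 36.1, 32.8, 32.5, 26.2 and 30.5 with lithium and 13.3, 7.64, 14.6, 23.3 and 13.8 with vehicle. The groups did not overlap, and vehicle 4 and lithium 4 lay closest (1.14 ± 0.250, adjusted p = 0.0257). The Hspb7 call ended without lithium 1, 2 or 3 or vehicle 1, 2 or 5 (adjusted p from 0.0525 to 0.118). Of 16 cytosolic heat shock genes on the list none passed, with a median of 0.02.

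Gjb6, connexin 30 of astrocyte gap junctions, was at the threshold. It had 2002, 1714, 1787, 1525 and 1426 normalised reads with lithium and 1174, 1141, 1532, 1589 and 995 with vehicle. Lithium 4 and 5 overlapped vehicle 3 and 4 (0.41 ± 0.098, adjusted p = 0.0493). Without lithium 1, 2 or 3 or vehicle 1, 2 or 5 the adjusted p of Gjb6 was 0.118 to 0.159. The call also ended with edgeR, in the fit limited to the 10 libraries and with the replicate numbers as a block. It ended too with GC and length trends removed and with equal medians (adjusted p over these settings from 0.0505 to 0.201). Of the 12 astrocyte markers, 9 were below 0, and the list median was -0.22. Aqp4, the astrocyte water channel, named after its values were seen, had 2401 to 3800 normalised reads with lithium and 3407 to 4816 with vehicle (-0.46 ± 0.129, adjusted p = 0.0997). Summed astrocyte markers were 127045 to 152623 with lithium and 141560 to 176494 with vehicle.

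Genes of the unfolded protein response lay above 0 in 19 of 22, with a median of 0.18. None passed, and 10 had an unadjusted p under 0.05, all higher, where 1172 of the 17875 genes tested were. With library weights 4 rose, and without the 2 WT vehicle libraries 1 did. The chaperone gene Hyou1, named after its values were seen, had the smallest p (0.30 ± 0.087, adjusted p = 0.1098). Summed levels were 67957 to 71881 with lithium and 57858 to 68245 with vehicle, so that vehicle 3 alone reached the lithium range. Pmm2 and Tmem165, which serve protein glycosylation in the secretory pathway, changed in opposite directions. Pmm2, phosphomannomutase, named after its values were seen, rose with 560 to 601 normalised reads against 467 to 509 (0.28, adjusted p = 0.0443), a call that did not hold without any single library (adjusted p from 0.0543 to 0.121). Tmem165, a Golgi ion transporter, fell with 594 to 675 against 714 to 840 (-0.29, adjusted p = 0.0193), and its call ended without lithium 2 or vehicle 1, 2, 4 or 5 (0.0503 to 0.0939).

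Marcks, an actin-linked substrate of protein kinase C that is abundant in growing neurites, is a known lithium-responsive protein in brain. It had 3857, 3416, 4032, 5530 and 4920 normalised reads with lithium and 6085, 5535, 5713, 5373 and 6261 with vehicle. Lithium 4 reached into the vehicle range (-0.43 ± 0.093, adjusted p = 0.0243). Fluoxetine minus vehicle, with the same vehicle libraries, gave -0.36 for Marcks (adjusted p = 0.0166). Lithium minus fluoxetine gave -0.08 (adjusted p = 0.700). The lithium call of Marcks ended without lithium 1, 2 or 3 or vehicle 1 or 5 (adjusted p from 0.0557 to 0.137). It was the 1 gene that passed of 18 immature neuron and growth genes, of which 17 were below 0 (median -0.24, and -0.16 without vehicle 5). Vehicle 5 is also the library with the highest olfactory bulb markers, all 10 of which were below 0 without passing (median -0.45, and -0.12 without vehicle 5), and whose part in the immature neuron genes was not tested. Without vehicle 5, 15 of the 18 were still below 0. Summed over the immature neuron list, lithium 4 and 5 had 67433 and 66841 normalised reads and lithium 1 to 3 had 78085 to 80505. The vehicle libraries had 79337 to 89463, so lithium 2 reached their range. Marcks itself was lowest in lithium 1 to 3.

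Of other genes that act at neuronal membranes and synapses, Unc79, a subunit of the sodium leak channel complex, rose with 2552 to 2783 normalised reads against 2018 to 2331 (0.28, adjusted p = 0.0161). Lrrtm4, a postsynaptic adhesion protein, fell with 863 to 998 against 1063 to 1256 (-0.35, adjusted p = 0.0330). Rimklb, which makes the dipeptide transmitter N-acetylaspartylglutamate, fell with 918 to 1060 against 1209 to 1318 (-0.33, adjusted p = 0.0161). Bace2, an aspartyl protease related to the β-secretase, fell with 95.4 to 144 against 155 to 199 (-0.65, adjusted p = 0.0257). In all of these the groups did not overlap. Leaving out lithium 2, vehicle 1 or vehicle 2 ended each of these 4 calls. So did lithium 4, lithium 5 or vehicle 5 for Bace2, and lithium 3, lithium 4, vehicle 4 or vehicle 5 for Lrrtm4, with adjusted p over the 4 genes from 0.0550 to 0.0939.

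Dapk1, a calmodulin-dependent death-associated kinase, rose (0.26, adjusted p = 0.0386), as did Map1lc3b, the LC3 protein of autophagosomes (0.22, adjusted p = 0.0270), and Depdc5, a subunit of the GATOR1 complex that restrains mTORC1 (0.23, adjusted p = 0.0315). Map1lc3b had 6127 to 6792 normalised reads with lithium and 5385 to 5976 with vehicle. Usp6nl, a Rab GTPase-activating protein, fell with overlapping libraries (-0.27, adjusted p = 0.0293), and so did Mcur1, a regulator of mitochondrial calcium uptake, without overlap (-0.30, adjusted p = 0.0293). None of these 5 calls held without lithium 2 or without lithium 3. Other single libraries ended them too, lithium 1, 4 and 5 and every vehicle library among them, with adjusted p from 0.0542 to 0.140.

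Tcea2, the elongation factor that rescues stalled RNA polymerase II, had 1239, 1290, 1281, 1099 and 1204 normalised reads with lithium and 928, 840, 860, 928 and 859 with vehicle. The groups were far apart (0.47 ± 0.085, adjusted p = 0.00273). AI854703, which has no established function, had 863, 830, 868, 890 and 887 against 684, 688, 684, 668 and 557. Vehicle 5 was low, and the call held without it (0.41 ± 0.070, adjusted p = 0.00208).

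Ppp1r10, a nuclear targeting subunit of protein phosphatase 1, rose by 0.34 (adjusted p = 0.0257). Hbs1l, which frees stalled ribosomes, rose by 0.22 (adjusted p = 0.0161), the zinc finger gene Zscan26 by 0.25 (adjusted p = 0.0278) and the transfer RNA-modifying Trmt12 by 0.35 (adjusted p = 0.0287). Nanos1, a translational repressor, fell (log2 difference -0.29, adjusted p = 0.0270). Trmt12 overlapped between the groups, through lithium 4 at 228 and vehicle 4 at 231, and the other 4 did not. Each of the 5 calls ended without lithium 2 and without vehicle 1. All but Hbs1l ended without vehicle 2, all but Ppp1r10 without vehicle 5, and all but Zscan26 without lithium 3. Lithium 5 ended Zscan26, Nanos1 and Trmt12, lithium 4 Zscan26, and lithium 1 and vehicle 3 Trmt12. The adjusted p in those cases was 0.0503 to 0.139.

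The remaining called genes fall outside the rule for named genes and are listed for completeness, chosen after their values were seen. Risen ones were Pnpla7, a lysophospholipase (0.52), Nsun7 (0.54), Wipf3, an actin regulator (0.37), Sord, sorbitol dehydrogenase (0.32), Ctns, the lysosomal cystine transporter (0.27), Txndc16, a thioredoxin-domain protein (0.26) and Slc25a27, a mitochondrial carrier (0.22). Fallen ones were Vstm2l (-0.67), Nova2, a neuronal splicing factor (-0.46), Cep76, a centrosomal protein (-0.41) and Mrfap1 (-0.27). Their adjusted p was 0.0343 to 0.0467, and each of these calls was lost without vehicle 2, without vehicle 5 and without 4 to 7 other single libraries (adjusted p from 0.0503 to 0.187). Pnpla7 had 494 and 466 normalised reads in lithium 4 and 5 and 328 to 345 in lithium 1 to 3, against 245 to 309 with vehicle.

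**Figure D3:**
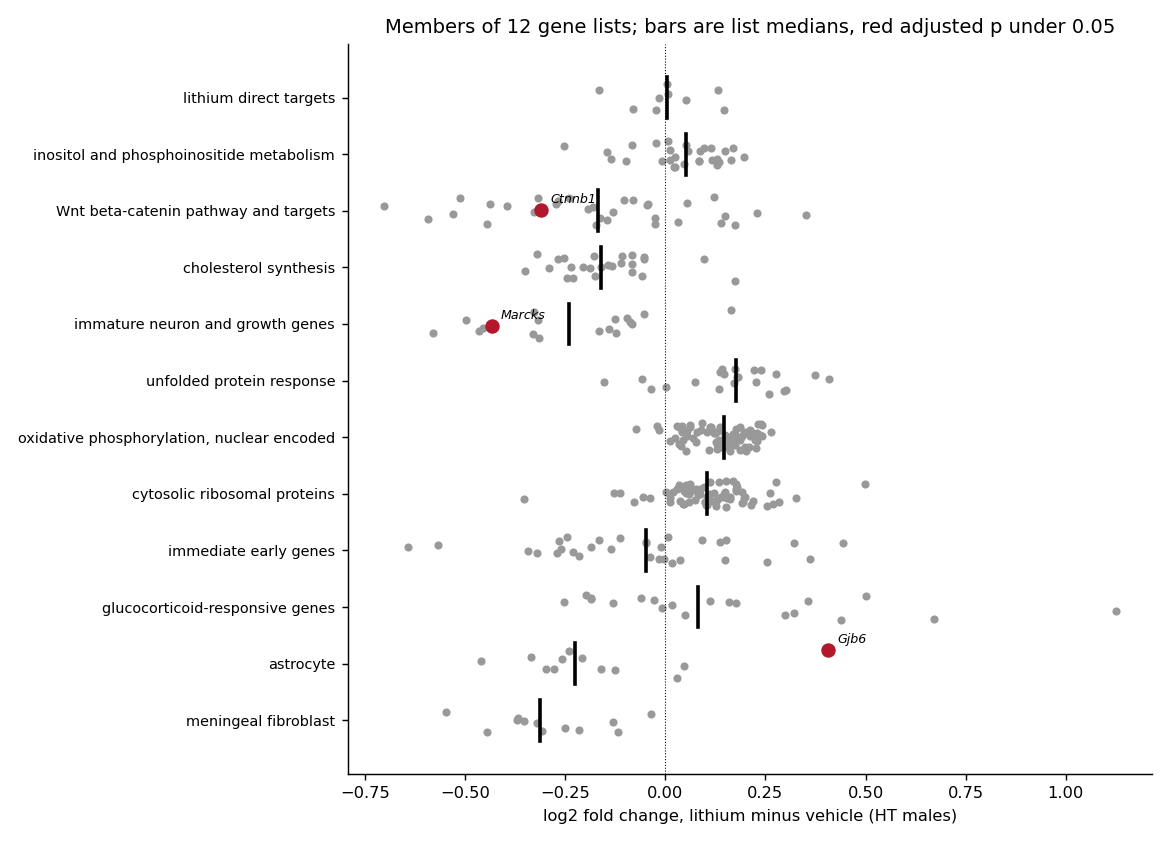
Log2 fold change (horizontal axis) of every tested member of 12 gene lists in HT males, with vertical bars at the list medians and red for genes with adjusted p under 0.05. Only Ctnnb1, Marcks and Gjb6 are red in these lists, while the medians run from -0.31 for meningeal fibroblast markers to 0.18 for the unfolded protein response.

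The remaining lists held no gene past the test, apart from Ctnnb1 among 50 autism risk genes (14 above and 36 below 0, median -0.07). Immediate early genes, which neuronal activity induces, had 11 of 31 above 0 and a median of -0.05. Klf10, with the smallest p among them and named after its values were seen, had 571 to 839 normalised reads with lithium and 860 to 1536 with vehicle (-0.64 ± 0.201, adjusted p = 0.143). The medians were 0.07 for 21 CREB and neurotrophin genes, -0.07 for 18 clock genes, -0.10 for 18 thyroid hormone-responsive genes, -0.04 for 28 monovalent cation transport genes and 0.10 for 11 metallothionein and zinc transport genes. Receptor lists were close to 0, at -0.03 for 15 ionotropic glutamate receptor genes, -0.09 for 13 GABA-A receptor genes and -0.04 for 16 serotonin and dopamine receptor genes. Medians were -0.04 for 22 H3K36 and KMT2 methylation enzymes, -0.0040 for 27 polycomb genes, 0.06 for 19 interferon genes and 0.16 for 13 mitochondrially encoded genes. The signs of the immediate early, polycomb and serotonin and dopamine medians changed under some settings, as did those of the lithium targets and of the hypoxia and glycolysis list.

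Markers of the main cortical cell types were all detected, and none of their members other than Gjb6 passed. Medians were -0.04 for 12 excitatory neuron markers, 0.05 for 12 interneuron markers, -0.14 for 13 oligodendrocyte and myelin markers, -0.17 for 10 oligodendrocyte precursor markers, -0.11 for 14 microglial markers, -0.08 for 13 endothelial markers and -0.01 for 9 pericyte and smooth muscle markers. Neighbouring tissues gave 0.19 for 16 striatal markers, which turned to -0.18 without lithium 4, 0.30 for 9 choroid plexus markers, 0.09 for 4 ependymal markers, -0.09 for 7 thalamic markers and 0.47 for 5 blood markers. The signs of the excitatory neuron, interneuron, endothelial, pericyte and ependymal medians also changed without 1 library or another.

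**Figure D4:**
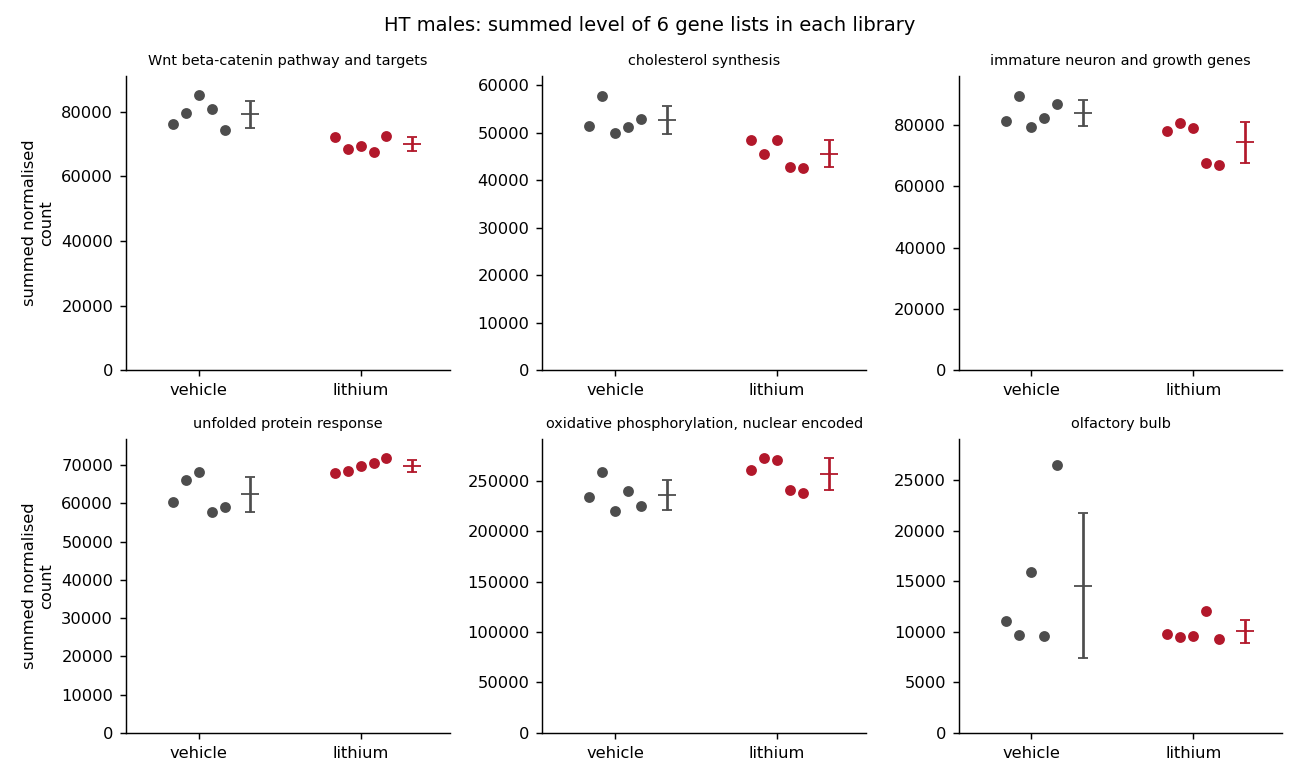
Summed normalised count (vertical axes, starting at 0) of 6 gene lists in each vehicle library (grey) and lithium library (red) of HT males, with the mean ± SD of 5 libraries beside each group. The Wnt and cholesterol lists do not overlap between the groups, and the olfactory bulb list shows vehicle 5 at 26504. The separation of the Wnt list rests on Ctnnb1, which is included in the sum. How far that of the cholesterol list rests on Hmgcs1 was not tested.

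The same 45 genes were then read in the strata that share no library with HT males. All 45 had the same sign in WT males and in HT females, and 41 in WT females, where 69.1%, 64.8% and 53.9% of all genes tested had the same sign as in HT males. Some of these values were near 0, such as 0.007 for Depdc5, 0.02 for Txndc16 and 0.02 for Zscan26 in HT females. Txndc16 was 0.04 in WT males. Past the threshold with the same sign were 9 of 45 in WT males (20%, against 0.476% of all genes), 16 in HT females (35.6%, against 2.76%, or 2.98% called in either direction) and 7 in WT females (15.6%, against 1.8%, or 2.45% in either direction). None was called in the opposite direction. All strata share the estimate of each gene's spread, so a small spread favours a call in every stratum. The share over all genes is therefore not a like-for-like background for the calls. The sizes were smaller elsewhere. Genes that rose had a median of 0.32 in HT males, 0.20 in WT males, 0.20 in HT females and 0.15 in WT females, and those that fell -0.45, -0.25, -0.28 and -0.13. Since the genes were chosen for their size in HT males, the larger values there are a description.

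Igfbp5, Tcea2 and Ogdhl were past the threshold in both WT males and HT females as well. Ogdhl rose by 0.48 in WT males (adjusted p = 0.00121) and by 0.35 in HT females (adjusted p = 0.0168), with 0.11 in WT females (adjusted p = 0.407). Igfbp5 fell in WT males (-0.49, adjusted p = 0.0355) and in HT females (-0.53, adjusted p = 0.0168). Slc16a1 fell in HT females (-0.46, adjusted p = 0.0133) and WT females (-0.42, adjusted p = 0.00783) and was -0.28 in WT males (adjusted p = 0.102). Ctnnb1 fell in HT females (-0.26, adjusted p = 0.0148), with -0.16 in WT males and -0.13 in WT females. Nrarp fell in WT males (-0.41, adjusted p = 0.0401), and Frat2 did too (-0.54, adjusted p = 0.0308). Of the 45, 27 passed in at least 1 other stratum, 18 in none and 0 in all 3.

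**Figure D5:**
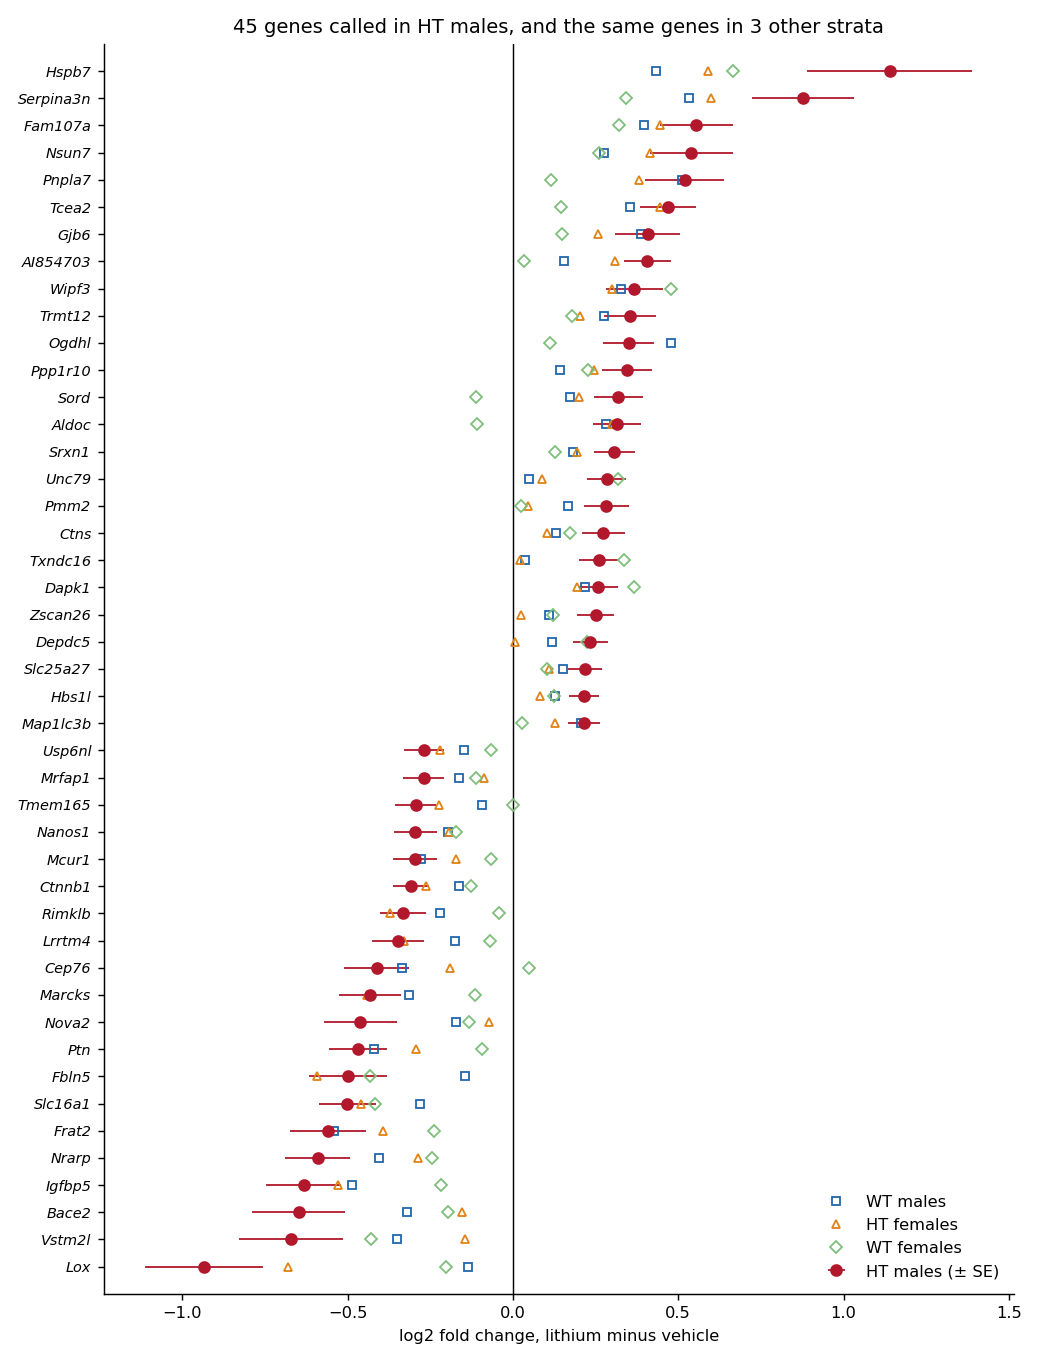
Log2 fold change, lithium minus vehicle (horizontal axis), of the 45 genes called in HT males: red points with bars are HT males ± SE, and open squares, triangles and diamonds are WT males, HT females and WT females. Open symbols lie on the side of the red point for all 45 genes in WT males and HT females, and for 41 in WT females.

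Whether the lithium effect of HT males differed from other strata was tested directly. No gene passed for the difference from WT males (0%; limma 392 at an unadjusted p under 0.05, or 2.19%; edgeR 0, with 408 unadjusted) or for the difference from HT females (0%; limma 1055, or 5.9%; edgeR 0, with 1032; DESeq2 0, with 1064). DESeq2 called 1 gene for the difference between genotypes, the pseudogene Eif4a-ps4 (limma adjusted p = 0.9998). The 3 smallest p-values for genotype belonged to Mid1, a ubiquitin ligase (difference of effects 1.58 ± 0.414), Pxdc1 (-0.51 ± 0.144) and Lox (-0.80 ± 0.252). Lox was -0.93 in HT males and -0.14 in WT males, with vehicle means of 99.3 and 64.4 normalised reads. For sex they belonged to Tmem189 (-0.33 ± 0.082), the centromere gene Cenph (1.59 ± 0.423) and Rspo1, a Wnt agonist (-1.06 ± 0.283), all at adjusted p = 0.791. Among the 45, 6 had an unadjusted p under 0.05 for genotype and 11 for sex. The 45 were chosen for their effect in HT males, which is part of both differences, so the choice itself raises these counts. They are not comparable with the shares over all genes. These tests do not show that the strata respond alike.

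Some list medians had another sign in other strata. Oxidative phosphorylation was 0.18 in WT males, 0.13 in HT females and -0.10 in WT females, and the ribosomal list 0.13, 0.07 and -0.21. Cholesterol synthesis was -0.06, 0.01 and -0.17. The Wnt list was -0.16, -0.05 and -0.09, the immature neuron list -0.26, -0.15 and -0.04, and the unfolded protein response list 0.12, 0.14 and 0.10.

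Fluoxetine gives a second drug in the same genotype and sex. It shares the 5 vehicle libraries with the lithium comparison, so its values are set side by side. Fluoxetine minus vehicle called 1026 genes in HT males (5.74%). For the 9 genes whose lithium call held without any single library, Nrarp was 0.14 with fluoxetine and -0.59 with lithium, Ctnnb1 -0.06 and -0.31, Igfbp5 -0.32 and -0.63, Slc16a1 -0.46 and -0.50, Ptn -0.38 and -0.47, and Lox -0.79 and -0.93. AI854703 was 0.20 with fluoxetine and 0.41 with lithium, Tcea2 0.28 and 0.47, and Serpina3n 0.53 and 0.88. Slc16a1, Ptn, Lox, Tcea2 and Serpina3n passed the test with fluoxetine, and Nrarp, Ctnnb1, Igfbp5 and AI854703 did not.

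The direct test of lithium against fluoxetine, which leaves the vehicle libraries out but uses the same lithium libraries, called 699 genes (3.91%), and 12 of the 45 passed it. Nrarp was 408 ± 16.7 normalised reads with lithium and 684 ± 97.0 with fluoxetine, a log2 difference of -0.73 (adjusted p = 6.07e-06). Ctnnb1 was lower with lithium by -0.25 (adjusted p = 0.00672), and Frat2 by -0.48 (adjusted p = 0.0127). Fam107a was higher with lithium by 0.42 (adjusted p = 0.0211). Rimklb, Unc79, Hbs1l, Map1lc3b, Depdc5, Dapk1, Txndc16 and Vstm2l completed the 12, each on the side it took against vehicle. Slc16a1 (-0.04, adjusted p = 0.823), Ptn (-0.08, adjusted p = 0.650) and Lox (-0.14, adjusted p = 0.717) did not pass between the drugs.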

How the data were processed

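The deposited table gave 1 value per gene and library for 59 libraries and 18088 genes. Per the labels' protocols, libraries were made with a stranded mRNA kit. The submitters' processing notes name Salmon 0.11.2, R 3.6.0, DESeq2 1.19.11 and build GRCm38. The values are a normalised signal, which the authors obtained as read counts divided by 1 size factor per library: multiplied by 1 number per library, 100% of values came out whole within 0.01. Gene identifiers were matched to GENCODE M21 (18077 matched).

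Values were analysed as log2(normalised count + 1) with limma 3.58.1 in R 4.3.3 (trend and robust variances), 1 mean per group over all 59 libraries, on the 17875 genes with at least 10 in at least 5 libraries (213 left out), two-sided, Benjamini-Hochberg threshold 0.05. Fold changes on this scale are understated for low genes. The unit of the table is not raw counts, so edgeR 4.0.16 and DESeq2 1.42.0 on the recovered reads were alternatives, beside another pseudocount, filter, scaling, library weights and omission of single libraries. The fit was tested on simulated counts with known changes. These were drawn independently for each library, so they do not bear on shared litters or dams or on outlying libraries.

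The genes named were Ash1l, the 15 risen and 15 fallen genes with the smallest p, members of fixed lists that passed, the lithium targets and the 3 leading genes of each interaction; others are said to be chosen after their values were seen. The comparison and the lists were chosen with earlier results of these data known.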

Additional observations from a re-analysis of the deposited data

Results flagged for a closer look

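The values of 55 named genes were checked in each of the 2 groups of 5 libraries, 110 groups in all, for a library that lay far from the other 4 (gap over range above Dixon's value of 0.71). Chance marks about 1 in 20 groups, and 9 were marked.

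In the vehicle group, library 5 had 557.074 normalised reads of AI854703, against 668 to 688 in the others, and 190.298 of Impa2, against 147 to 153. Library 2 of vehicle had 2370.58 reads of Slc16a1 (others 1705 to 1868) and 20753.2 of Ctnnb1 (others 17522 to 18393). In the lithium group, library 4 had 18394.5 reads of Fam107a (others 14341 to 15449) and 227.821 of Trmt12 (others 278 to 291). Library 2 of lithium had 3211.75 reads of Ogdhl (others 2793 to 2889), library 5 had 2846.03 of Txndc16 (others 3026 to 3070) and library 1 had 152.974 of Cep76 (others 192 to 207). Without the library concerned, the calls of AI854703, Slc16a1, Ctnnb1, Fam107a, Trmt12 and Txndc16 held, those of Ogdhl and Cep76 ended, and Impa2 was not called either way.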

How the results depend on the processing

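The 45 genes called were 61 with edgeR (44 shared), 169 with DESeq2 (44 shared), 28 with only the 10 libraries compared (13 shared), 93 with trends in GC content and length removed (39 shared), 412 with library weights (45 shared), and 187 without the 2 WT vehicle libraries that stand apart, an alternative chosen after seeing the data (45 shared). Leaving out 1 library gave 12 to 49. The replicate numbers of the labels are shared between groups, and the labels do not say what they stand for. Same-numbered libraries did not deviate together (residual correlations -0.135 to -0.00863, and 0 of 5 correlated best with its own number). These values cannot tell whether same-numbered libraries shared a litter, dam or batch, which was not tested. With the numbers as a replicate block 35 genes passed, 34 of them shared. Over 21 settings, 8 genes passed in every one (AI854703, Serpina3n, Tcea2, Nrarp, Slc16a1, Igfbp5, Ptn and Lox), 37 lost the call in at least 1, and none of the 45 changed sign. The genotype interaction gave 1 gene with DESeq2 and 0 in its other settings, and the sex interaction 0 in all. Values near 0 of genes that were not called changed sign when 1 library was left out, with ranges of -0.011 to 0.025 for Ash1l, -0.052 to 0.0089 for Gsk3b, -0.042 to 0.053 for Impa2, -0.011 to 0.079 for Inpp1, -0.014 to 0.026 for Bpnt1 and -0.048 to 0.084 for Pgm2, which was also -0.0047 with GC and length trends removed and -0.012 with library weights. The causes were not tested. A depth of 25884447 reads or more leaves genes such as Hspb7, at 7.64 to 36.1 normalised reads, with few reads each.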
